A study of Mus musculus with 16 samples.

Results

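*Hmgcs1*, *Mvd*, *Idi1*, *Fdps*, *Fdft1*, *Sqle*, *Lss* and *Cyp51* encode 8 enzymes of cholesterol synthesis, and their RNA was compared in the dorsal skin of mice with and without UVB irradiation, in both sexes. They were chosen by name as enzymes of the pathway, with no threshold on a measured value, but with earlier results of these data known. They are 8 of the 55359 genes counted in each mouse, and all 8 had enough reads to be tested in every comparison.

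The 16 mice were labelled wild-type C57Bl/6 (substrain C57Bl/6N in the published description), were aged 8 weeks and carried no transgene, and formed 4 groups of 4: males with UVB, males without UVB, females with UVB and females without UVB. The irradiated mice received UVB 3 times, once every 2 days, and their skin was collected 6 h after the last exposure, on day 5. Polyadenylated RNA was sequenced from whole skin, a mixture of epidermis, hair follicles, sebaceous glands, dermis, fat and muscle, in which fewer cells of a type and less RNA per cell cannot be told apart. The study asks how male and female skin differ in their response to UVB.

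Reads on genes numbered 16495776 to 33404831 per mouse, and levels are given in CPM, read counts relative to the total on genes, scaled between libraries. Summed markers of keratinocytes, sebocytes, adipocytes, muscle and fibroblasts were detected in every group, and no single marker was at 0 in all mice. The labels place the hair follicles in telogen, the resting phase, but a list of 7 genes of growing hair (4 hair shaft keratins, the inner root sheath keratins *Krt71* and *Krt25*, and the transcription factor *Hoxc13*) summed to 41.9 and 74.5 CPM in replicates 3 and 4 of the males without UVB, against 2.60 to 7.41 CPM in all other mice. Calls of the 8 genes, and most counts of the other lists, that rest on males without UVB are therefore also given without these 2 mice. *Col1a1*, *Col1a2*, *Col3a1* and 3 other fibroblast genes together stood at 79065 to 86268 CPM in males without UVB and at 12113 to 39292 CPM in the other 3 groups.

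Cholesterol is made from acetyl-CoA through mevalonate, isoprenoid diphosphates, squalene and lanosterol. The genes of this pathway share a regulator, the transcription factor SREBP2, which is released from the endoplasmic reticulum by SCAP when membrane sterol falls and is held there by INSIG proteins when sterol is plentiful. In skin, keratinocytes make cholesterol for the lipid layers of the permeability barrier, and sebocytes make squalene, cholesterol and other lipids for sebum.

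All 8 genes rose in irradiated males. A gene was called where edgeR's quasi-likelihood test gave an adjusted p (Benjamini-Hochberg, over all genes tested) under 0.1, and 29.0% of the 16535 genes tested were called higher in males. In females 7 of the 8 rose and *Fdps* was not called, against a background of 12.8% of 16883 genes called higher. On the log2 scale the median change of the members was 0.72 among males and 0.59 among females, beside −0.02 and 0.0025 for all genes tested. *Idi1* passed a log2 change of 1 in both sexes, which 4.08% of all genes did in males and 1.63% in females. In males the 4 irradiated mice lay above all 4 others for 8 of 8 genes, as they did for 22.9% of all genes. In females this held for 6 of 8, with *Hmgcs1* and *Fdps* overlapping, and for 11.1% of all genes. Summed over the 8 genes, the level was 814 ± 34.0 CPM (SD, n = 4) in males without UVB and 1368 ± 63.3 CPM in males with UVB, and 668 ± 103 CPM and 996 ± 108 CPM in the corresponding females. Without the 2 mice that carried RNA of growing hair, the males again gave 8 of 8 genes called, with log2 fold changes of 0.64 to 1.59. The balance of calls over all genes shifted with the scaling: upper quartile scaling gave 3880 higher and 6130 lower genes in males in place of 4802 and 5051, and 1737 and 2157 in females in place of 2162 and 1787, while the members' calls were the same.

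**Figure D1:**
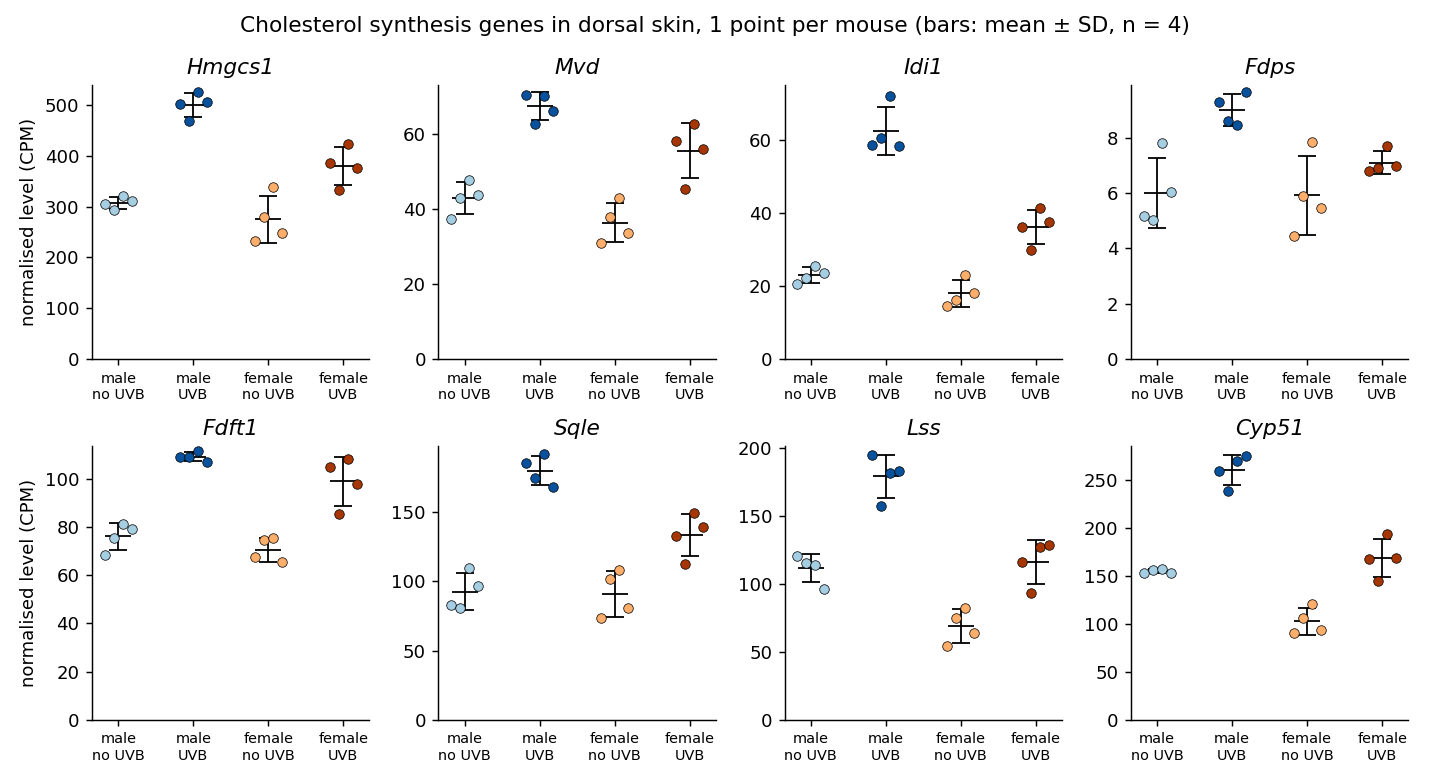
Level of each gene in CPM (vertical axes, from 0) in the 4 groups (horizontal axes), with 1 point per mouse and bars for the mean ± SD of 4 mice. Every male with UVB lies above every male without UVB in all 8 panels. As a ratio, *Idi1* shows the largest separation of the males, from 20.5 to 25.6 CPM without UVB to 58.5 to 72.3 CPM with UVB.

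The mevalonate part of the pathway is represented by *Hmgcs1* and *Mvd*. *Hmgcs1* (ENSMUSG00000093930.3, chr13:120151915-120170470, plus strand, in GRCm39) encodes a synthase at the start of the mevalonate route, which makes HMG-CoA. It stood at 304, 293, 321 and 310.0 CPM in the 4 males without UVB and at 501, 468, 525 and 505 CPM in those with UVB, listed by replicate number. The male groups were well apart, and the log2 fold change was 0.72 (SE 0.063, adjusted p = 5.84e-06). In females it was 232, 280.1, 338 and 249 CPM without UVB and 386, 333, 423 and 376 CPM with UVB. Replicate 3 without UVB lay just above replicate 2 with UVB, so the female groups overlapped, and the log2 fold change was 0.47 (SE 0.13, adjusted p = 0.0307). *Mvd* (ENSMUSG00000006517.6, chr8:123160336-123170324, minus strand) encodes the decarboxylase that turns mevalonate diphosphate into isopentenyl diphosphate. In males it stood at 37.4, 43.0, 47.9 and 43.9 CPM without UVB and 70.7, 62.9, 70.3 and 66.3 CPM with UVB, with no overlap and a log2 fold change of 0.67 (SE 0.077, adjusted p = 3.86e-05). Female levels were 31.0, 38.0, 43.0 and 33.6 CPM without and 58.3, 45.5, 62.7 and 56.2 CPM with UVB, again with no overlap, and the log2 fold change was 0.62 (SE 0.12, adjusted p = 0.00778).

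*Idi1* and *Fdps* act on the isoprenoid diphosphates. *Idi1* (ENSMUSG00000058258.15, chr13:8935537-8942487, plus strand) encodes the isomerase that interconverts isopentenyl and dimethylallyl diphosphate. It stood at 20.5, 22.1, 25.6 and 23.7 CPM in males without UVB and 58.8, 60.7, 72.3 and 58.5 CPM in males with UVB, with no overlap. Its log2 fold change in males was 1.47 (SE 0.092, adjusted p = 1.05e-06), a 2.76-fold rise, the largest of the 8, that exceeded that of 98.0% of the genes tested. In females it stood at 14.4, 16.2, 23.1 and 18.1 CPM without UVB and 36.2, 30.0, 41.3 and 37.5 CPM with UVB, with no overlap, and the log2 fold change was 1.02 (SE 0.15, adjusted p = 0.00184), or 2.02-fold. *Fdps* (ENSMUSG00000059743.13, chr3:89000888-89019213, minus strand) encodes farnesyl diphosphate synthase, whose product is shared with protein prenylation, ubiquinone and dolichol. It stood at 5.17, 5.02, 7.80 and 6.02 CPM in males without UVB and 9.28, 8.61, 8.45 and 9.65 CPM with UVB. The male groups did not overlap and the log2 fold change was 0.60 (SE 0.14, adjusted p = 0.00407). Among females the level was 4.46, 5.91, 7.86 and 5.46 CPM without and 6.79, 6.89, 7.72 and 6.97 CPM with UVB, where replicate 3 without UVB was the highest of all 8 females. The log2 fold change in females was 0.26 (95% interval -0.10 to 0.62, adjusted p = 0.311), and without that mouse it was 0.44 and passed the threshold, with an adjusted p of 0.0711.

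Some of these genes have near-identical copies in the genome, and the tables list no reads that map to several places. In GRCm39, 95.8% of the canonical *Idi1* transcript and 91.3% of that of *Fdps* matched other places over at least 100 bases at an identity of 95% or more. The same held for 48.0% of *Fdft1* and 9.67% of *Hmgcs1*, and for none of *Mvd*, *Sqle*, *Lss* and *Cyp51*. Levels of *Idi1*, *Fdps* and *Fdft1* are therefore uncertain, since reads shared with a copy may be missing from them or counted on the copy. *Fdft1* also overlaps the gene of the protease cathepsin B, *Ctsb*, on the opposite strand. Counted without regard to strand, *Fdft1* changed by 0.54 (log2) among males, as on the strand of the kit.

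*Fdft1* and *Sqle* make and oxidize squalene, the first intermediate that is committed to sterols. *Fdft1* (ENSMUSG00000021273.12, chr14:63382189-63417027, minus strand) encodes squalene synthase. It stood at 68.5, 75.7, 81.2 and 79.1 CPM in males without UVB and at 109, 109, 112 and 107 CPM with UVB, where the 4 mice were nearly equal. The log2 fold change was 0.54 (SE 0.060, adjusted p = 3.06e-05), the smallest of the 8 in males. Females went from 67.5, 74.5, 75.3 and 65.4 CPM to 105, 85.3, 108 and 97.8 CPM with no overlap, a log2 fold change of 0.49 (SE 0.087, adjusted p = 0.00481). *Sqle* (ENSMUSG00000022351.15, chr15:59186869-59203043, plus strand) encodes squalene epoxidase, a second point of control of the pathway. It stood at 82.9, 80.8, 109 and 96.8 CPM in males without UVB and at 185, 175, 192 and 168 CPM with UVB, which was the second largest response among males, with a log2 fold change of 0.98 (SE 0.10, adjusted p = 1.37e-05). In females it stood at 73.2, 101, 108 and 80.9 CPM without UVB and 133, 113, 149 and 139 CPM with UVB. The lowest irradiated female was only slightly above the highest female without UVB, and the log2 fold change was 0.56 (SE 0.13, adjusted p = 0.0182).

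*Lss* and *Cyp51* form and demethylate lanosterol, the first sterol. *Lss* (ENSMUSG00000033105.13, chr10:76367298-76392976, plus strand) encodes lanosterol synthase. In males it stood at 120.4, 115, 114 and 96.7 CPM without UVB and 195, 158, 182 and 184 CPM with UVB, and the log2 fold change was 0.71 (SE 0.082, adjusted p = 4.17e-05). The females had 54.5, 75.3, 82.4 and 63.9 CPM without UVB and 117, 93.5, 127 and 129 CPM with UVB, and the log2 fold change was 0.76 (SE 0.14, adjusted p = 0.00602). *Lss* thus had the largest fitted change after *Idi1* in females, and neither sex's groups overlapped. *Cyp51* (ENSMUSG00000001467.6, chr5:4123416-4154751, minus strand) encodes the sterol 14-demethylase. The males without UVB were close together (SD 1.99 CPM, n = 4), at 153, 156, 157 and 153 CPM, and those with UVB stood at 259, 238, 269 and 274 CPM, a log2 fold change of 0.77 (SE 0.058, adjusted p = 2.66e-06). Females stood at 89.9, 106, 121 and 93.3 CPM without UVB and 168, 145, 193 and 169 CPM with UVB, a log2 fold change of 0.72 (SE 0.11, adjusted p = 0.00263). Neither pair of groups overlapped.

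The size of the UVB response was compared between the sexes. For the difference of the UVB responses, males minus females, edgeR's test of the interaction over all 16 mice called 0 of the 8 genes, where it called 7.00% of 17406 genes in either direction, 478 higher and 740 lower. That background moved both ways when single mice were left out. It fell to 163 and 298 genes without replicate 1 of the irradiated males, and to 173 and 305 without replicate 2 of the males without UVB. It was 196 and 322 without replicate 1 of the irradiated females, and 239 and 466 without replicate 1 of the males without UVB. It was 242 and 464 without replicate 2 of the irradiated males, and 235 and 441 without replicate 3 of the females without UVB. It rose to 835 and 907 without replicate 3 of the irradiated females, and to 747 and 843 without replicate 4 of the females without UVB. At an unadjusted p under 0.05 the interaction test gave 2 of the 8, and DESeq2 also called 0. The differences were 0.44 (95% interval 0.052 to 0.82, adjusted p = 0.184) for *Idi1* and 0.41 (95% interval 0.040 to 0.77, adjusted p = 0.193) for *Sqle*. For *Fdps* the difference was 0.33 (95% interval -0.14 to 0.80, adjusted p = 0.415) and for *Hmgcs1* 0.24 (95% interval -0.065 to 0.54, adjusted p = 0.356). For *Mvd*, *Fdft1*, *Lss* and *Cyp51* the fitted differences lay between −0.07 and 0.04, with 95% intervals that reached from −0.43 to 0.36. Without the 2 males that carried RNA of growing hair, *Sqle* was called, with a difference of 0.58 and an adjusted p of 0.0760, and it was also called without only replicate 3 of the males without UVB, at 0.50. Both of these fits called more genes over all than the fit of 16 mice. Without the 2 males, 832 genes were higher and 1036 lower of 18088, and without only replicate 3, 741 and 1020 of 17599.

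Levels were also compared directly between males and females. Without UVB, *Lss* and *Cyp51* were higher in males, 2 of the 8 genes against 7.21% of all genes called higher. That background of 1255 genes was 762 without replicate 2 of these males and 810 without replicate 2 of these females. It was 1388 without replicate 2 of the irradiated females. *Lss* and *Cyp51* had log2 fold changes of 0.69 (SE 0.12, adjusted p = 0.00254) and 0.59 (SE 0.093, adjusted p = 0.000807). The 4 males lay above the 4 females for both genes and for no other of the 8, while 7.80% of all genes showed such a separation. The other 6 genes had log2 fold changes of 0.01 to 0.35, of which *Idi1* was the largest at 0.35 (95% interval 0.073 to 0.63, adjusted p = 0.119). The count moved most with 1 female: without replicate 3 of the females without UVB, 5 genes were called, *Hmgcs1*, *Mvd* and *Idi1* added, and without replicate 2 of the irradiated females it was 3, *Idi1* added. Without the 2 males that carried RNA of growing hair the count was again 2, with log2 fold changes of 0.77 for *Lss* and 0.60 for *Cyp51*. In that fit *Fdps* and *Sqle* turned negative.

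After UVB, 6 of the 8 genes were higher in males, where 12.8% of all genes were called higher. That background of 2222 genes was 1322 without replicate 1 of the irradiated females and 2341 without replicate 3 of them. The log2 fold changes were 0.79 (SE 0.13, adjusted p = 0.000993) for *Idi1*, 0.63 (SE 0.093, adjusted p = 0.000552) for *Cyp51* and 0.62 (SE 0.12, adjusted p = 0.00375) for *Lss*. They were 0.43 (SE 0.12, adjusted p = 0.0244) for *Sqle*, 0.40 (SE 0.10, adjusted p = 0.0146) for *Hmgcs1* and 0.28 (SE 0.11, adjusted p = 0.0779) for *Mvd*. *Fdps*, at 0.34 (95% interval 0.017 to 0.67, adjusted p = 0.136), and *Fdft1*, at 0.14 (95% interval -0.015 to 0.30, adjusted p = 0.199), did not pass. All 4 irradiated males lay above all 4 irradiated females for 7 of the 8 genes, *Fdft1* being the exception, and for 11.5% of all genes. The comparisons after and without UVB share their groups with the responses above and do not add independent evidence. Over all genes, upper quartile scaling gave 1659 higher and 2736 lower after UVB in place of 2222 and 2169, and *Mvd* then missed the threshold at a log2 fold change of 0.24 (adjusted p = 0.117). *Mvd* also missed it in 6 of the fits that left out 1 irradiated mouse, with adjusted p of up to 0.216. Cell type markers differed between irradiated males and females too, and their part in the difference was not tested. Higher in males were 5 of 7 keratinocyte genes, with a median log2 fold change of 0.72 beside 0.41 for the 8 genes, 6 of 7 genes of dividing cells and 3 of 6 fibroblast genes, while 6 of 7 adipocyte genes were lower. Sebocyte genes were split, with 2 of 9 higher and 3 lower. The summed keratinocyte level was 24141 to 33512 CPM in irradiated males and 14409 to 18338 CPM in irradiated females. Without UVB, edgeR called 0 keratinocyte genes and 0 genes of dividing cells, with 0 of either at an unadjusted p under 0.05, while 4 of 6 fibroblast genes and 4 of 7 muscle genes were higher in males, and 4 and 2 without the 2 males that carried RNA of growing hair, where 1 gene of dividing cells was lower.

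**Figure D2:**
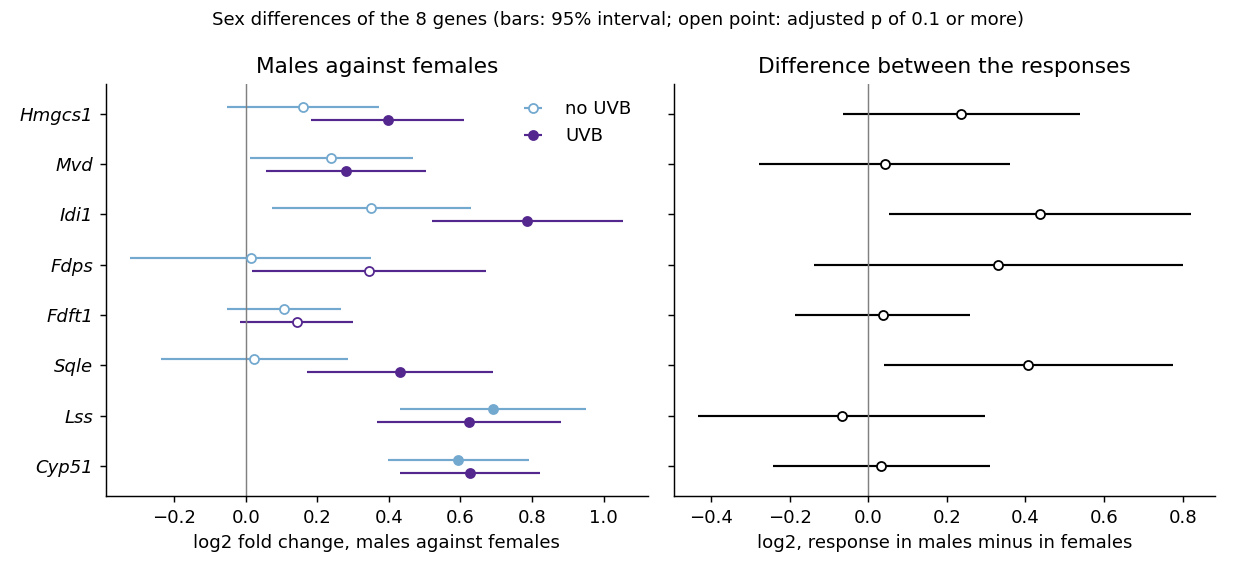
Left, log2 fold change of males against females (horizontal axis) for each of the 8 genes, without UVB and after UVB; right, the log2 difference between the UVB responses of the sexes. Points are edgeR estimates, bars 95% intervals and filled points adjusted p below 0.1; *Lss* and *Cyp51* are filled under both conditions, and no point is filled at right.

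The 8 genes varied together among the mice of a group. In replicate 3 of the females without UVB, of the females with UVB and of the males without UVB, the last of which carried RNA of growing hair, all 8 lay above the mean of their group. In replicate 1 of the females without UVB and in replicate 2 of both irradiated groups, all 8 lay below it. Across the 16 mice, with each gene set relative to its group mean on the log2 scale, Pearson's r between 2 of the genes was 0.498 to 0.947 over the 28 pairs, with a median of 0.755. These correlations share the libraries and their scaling and are given as a description. The summed level ranged from 567 to 799 CPM among females without UVB and from 851 to 1113 CPM among females with UVB, beside 791 to 864 CPM among males without UVB.

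**Figure D3:**
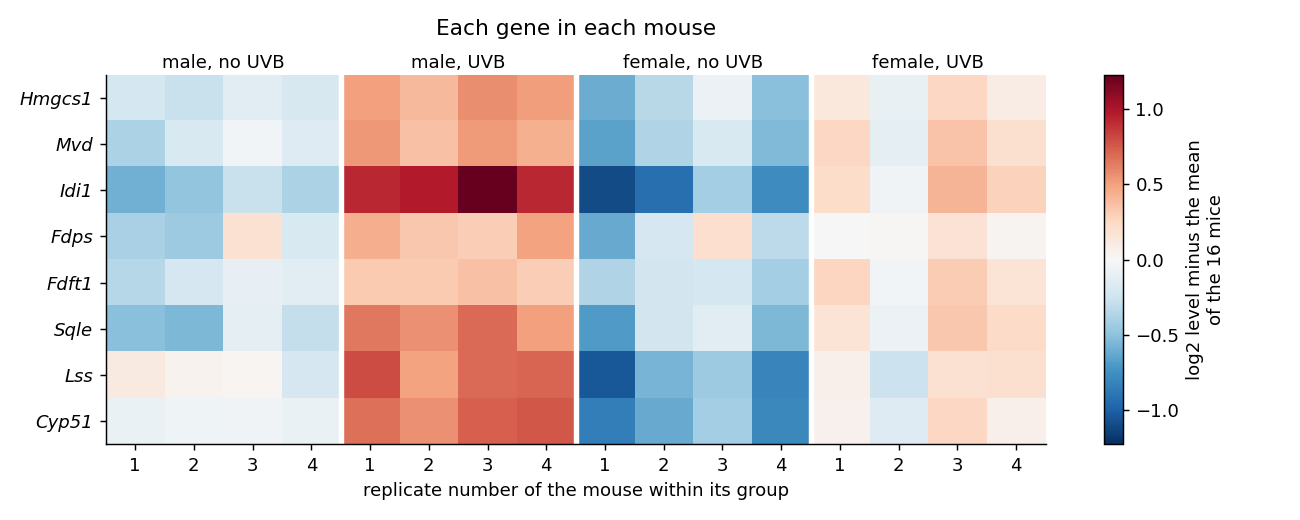
Each gene (rows) in each mouse (columns, by group and replicate number), as the log2 level minus that gene's mean over the 16 mice (color scale, red above and blue below). Mice such as female replicate 3 without UVB are shifted in the same direction for all 8 genes relative to their group, and *Idi1* has the widest range.

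Other genes were ranked by the correlation of their within-group deviations with the mean of the 8, over 16 mice and 14012 genes with a mean of at least 1 CPM. The 8 most alike were *Camsap1* (r = 0.946), *Ano7* (0.922), *Exph5* (0.905), *Med14* (0.896), *Slc27a4* (0.875), *Rab22a* (0.868), *Panx3* (0.861) and *Secisbp2l* (0.859). None of them is an enzyme of sterol synthesis. *Slc27a4*, a fatty acid transport protein of the epidermis, also rose with UVB, by 1.12 among males and 0.71 among females on the log2 scale (adjusted p = 1.13e-06 and 0.00659), whereas *Ano7* had −0.57 in males (adjusted p = 0.00459) and −0.25 in females (adjusted p = 0.499). The 13 other sterol synthesis genes had a median rank of 988, and *Acat2* was at rank 94.

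Because the 8 genes moved together, their promoters were read where the RefSeq table held them, which was the case for 5 of the 8: *Hmgcs1*, *Mvd*, *Idi1*, *Lss* and *Cyp51*. The 250 bases before the RefSeq start were searched on both strands for the core of the sterol regulatory element, TCACNCCAC, for the CCAAT box bound by NF-Y and for the GC box GGGCGG bound by Sp1, which are known to act with SREBPs, and for the E-box CACGTG. No 2 matches in these promoters shared a base. The *Hmgcs1* promoter is shown whole since it alone of the 5 held an exact match to the sterol element core, as did 1.05% of 32851 promoters of this length. Sterol elements with other letters were not searched for. For the others the stretch around the CCAAT box nearest the start is shown. Capitals mark the sterol element and the CCAAT boxes, which read ATTGG when they lie on the opposite strand. The sequences are from RefSeq (GRCm38.p6) and were placed in GRCm39 by an exact match, at chr13:120151637-120151886 (plus strand) for *Hmgcs1*, chr5:4154710-4154738 (minus) for *Cyp51*, chr8:123170172-123170200 (minus) for *Mvd*, chr10:76367365-76367393 (plus) for *Lss* and chr13:8935616-8935641 (plus) for *Idi1*.
Hmgcs1: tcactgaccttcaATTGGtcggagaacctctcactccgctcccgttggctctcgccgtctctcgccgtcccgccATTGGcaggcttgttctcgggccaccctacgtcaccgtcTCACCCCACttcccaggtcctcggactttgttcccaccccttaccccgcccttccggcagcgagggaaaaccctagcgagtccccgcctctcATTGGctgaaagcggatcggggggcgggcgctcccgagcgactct
Cyp51: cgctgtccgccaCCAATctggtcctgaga
Mvd: ccggccagcgggCCAATcatatggcagcg
Lss: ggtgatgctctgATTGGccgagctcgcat
Idi1: gtccaaggtgccATTGGctggcgacc

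The sterol element of *Hmgcs1*, TCACCCCAC, lay at positions −137 to −129 before the start. CCAAT boxes were in 5 of 5 promoters and in 33.8% of all promoters, and GC boxes in 5 of 5 and in 32.7%. *Hmgcs1* held 3 CCAAT boxes, *Mvd* and *Idi1* held 2 each, and *Lss* and *Cyp51* held 1 each. The E-box was in 0 of 5 and in 6.02% of all promoters. The stretches shown for *Cyp51*, *Mvd*, *Lss* and *Idi1* lie inside the outer bounds of the GENCODE genes, which begin before the RefSeq start, and that of *Hmgcs1* lies before its gene. A match of letters is a description of the sequence and no measurement of binding in these samples.

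Most other enzymes of the pathway rose as well. Of 13 further cholesterol synthesis genes, 13 rose in males and 10 in females, where 29.0% and 12.8% of all genes did, with median log2 fold changes of 0.57 and 0.49. The male count was 12 without the 2 males that carried RNA of growing hair and 11 under upper quartile scaling. *Hsd17b7*, a reductase of the sterol demethylation steps, changed on the log2 scale by 1.07 (SE 0.15, adjusted p = 0.000360) in males and by 1.48 (SE 0.17, adjusted p = 0.000669) in females. *Acat2*, the thiolase at the head of the pathway, changed by 0.84 in males, and *Msmo1*, a methylsterol oxidase, by 0.95 in females. The genes not called in females were *Nsdhl* (0.25), *Lbr* (-0.049) and *Sc5d* (-0.16). The interaction called 0 of the 13 by edgeR, with 3 at an unadjusted p under 0.05, and 1 without those 2 males.

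**Figure D4:**
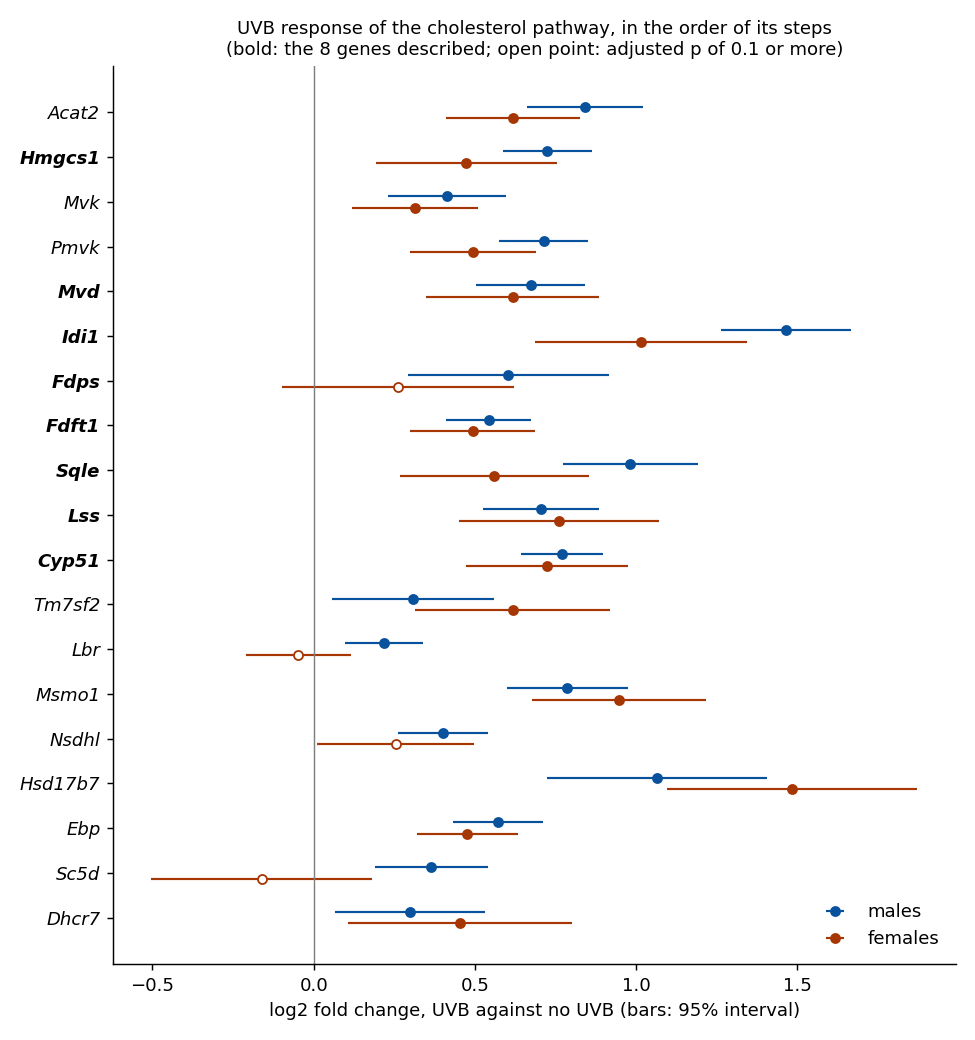
Log2 fold change of UVB against no UVB (horizontal axis) for 19 genes of cholesterol synthesis in the order of their steps (vertical axis), in males and females, with 95% intervals. The 8 genes described are in bold, open points have an adjusted p of 0.1 or more, and all 19 points of the males lie above 0.

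Of 10 genes that control SREBPs, 5 rose and 1 fell in males, and 1 rose and 1 fell in females, with log2 fold changes of −0.20 to 0.60 in males. Of all genes, 29.0% were called higher and 30.5% lower in males. The female counts are near the shares of all genes called in females, 12.8% higher and 10.6% lower, and both calls were lost in most of the 8 fits that left out 1 mouse. The balance in males depended on the scaling, with 2 genes higher and 3 lower under upper quartile scaling, and it was 4 and 1 without the 2 males that carried RNA of growing hair. *Srebf2*, which encodes SREBP2, changed on the log2 scale by 0.28 (SE 0.069, adjusted p = 0.00604) among males, and its value among females was 0.091 (SE 0.11, adjusted p = 0.626). *Scap* rose by 0.60 in males and 0.32 in females (adjusted p = 1.90e-05 and 0.0689), and *Mbtps1*, a protease that cuts SREBP, had -0.20 and -0.18 (adjusted p = 0.00735 and 0.0863). *Srebf1* was at -0.060 (95% interval -0.21 to 0.089, adjusted p = 0.481) in males and 0.11 (95% interval -0.19 to 0.41, adjusted p = 0.632) in females. *Insig1*, a sterol-regulated brake on SCAP, was at 0.18 (95% interval -0.11 to 0.46, adjusted p = 0.266) and 0.38 (95% interval -0.010 to 0.78, adjusted p = 0.176). It was called at 0.29 (adjusted p = 0.0698) without replicate 2 of the males without UVB and at 0.51 (adjusted p = 0.0879) without replicate 4 of the females without UVB, and the other fits that left out 1 mouse gave 0.078 to 0.23 in males and 0.22 to 0.43 in females.

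Of 15 genes of uptake and transport, 4 rose and 8 fell in males, where 30.5% of all genes were called lower, and 1 rose and 3 fell in females, where 10.6% were, with median log2 fold changes of −0.21 and −0.01. *Stard4*, a sterol carrier protein, rose on the log2 scale by 1.04 and 0.54, while *Gramd1b*, a sterol transfer protein of membrane contacts, had -0.51 and -0.47. Of 13 measured genes of efflux, modification and storage, 4 rose and 3 fell in males, and 3 rose and 1 fell in females; the male counts are near the shares of all genes called, 29.0% higher and 30.5% lower. *Sult2b1*, which makes cholesterol sulfate in the epidermis, rose by 1.46 and 1.03, and *Soat1*, which esterifies cholesterol, by 1.31 and 0.48 (adjusted p = 2.48e-05 and 0.0965). *Cyp27a1*, a sterol hydroxylase, and *Nceh1*, a cholesteryl ester hydrolase, had -0.55 and -0.56 in males. With each female left out in turn, the female calls were lost in 5 of 8 fits for *Scap*, in 7 for *Mbtps1* and in 6 for *Soat1*, with adjusted p of up to 0.165, 0.185 and 0.220. In the counts of females above, *Npc1* and *Lpcat3* also lost their call in 6 of 8 fits, *Nceh1* in 5 and *Lrp1* in 4. Without the 2 males that carried RNA of growing hair, the male counts were 4 higher and 6 lower for uptake and transport, and 6 and 3 for efflux, modification and storage.

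Of 8 genes that use isoprenoid diphosphates for other products, 2 rose in each sex, *Pdss1* and *Nus1*, and *Nus1* lost its call among females in 6 of the 8 fits that left out 1 mouse. The male count is below the 29.0% of all genes called higher, and under upper quartile scaling 4 other genes of this list fell in males and 1 gene rose in females. *Pdss1*, a subunit of the enzyme that makes the side chain of ubiquinone, stood at 8.20, 8.61, 10.9 and 9.002 CPM in males without UVB and 61.0, 45.8, 53.1 and 51.0 CPM with UVB, a log2 fold change of 2.54 (SE 0.11, adjusted p = 1.68e-07). In females it stood at 9.27, 10.3, 10.1 and 8.18 CPM and 16.1, 21.9, 18.9 and 20.8 CPM, with 1.05 (SE 0.12, adjusted p = 0.000424). Of 15 genes of fatty acid synthesis, 4 rose and 3 fell in males and 0 were called in females by edgeR, with 2 at an unadjusted p under 0.05. The male counts of this list, too, are near or below the shares of all genes called. They were 3 higher and 5 lower under upper quartile scaling, and 3 and 2 without the 2 males that carried RNA of growing hair, where those of the isoprenoid list were again 2 and 0. *Elovl6*, an elongase of fatty acids, and *Acly*, which supplies acetyl-CoA to fatty acids and sterols alike, rose in males by 1.60 and 0.63. *Acsl3* and *Fads1*, an acyl-CoA synthetase and a desaturase, fell in males by 0.65 and 0.52 on the log2 scale.

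**Figure D5:**
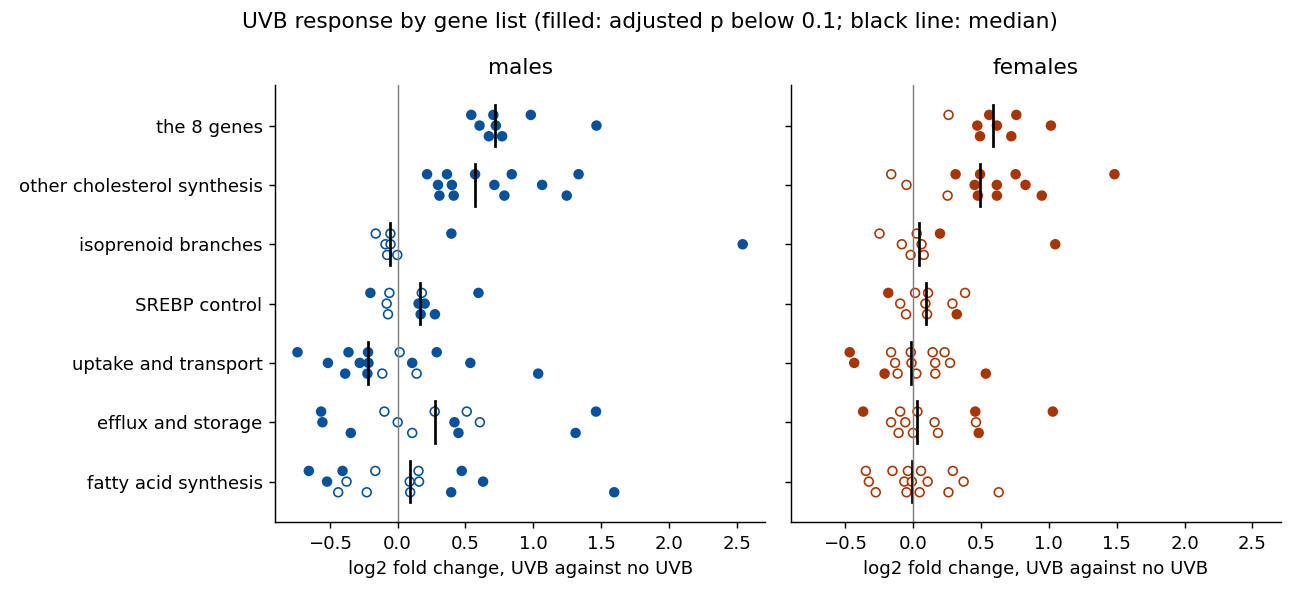
Log2 fold change of UVB against no UVB (horizontal axes) of every tested gene of 7 lists (vertical axis), in males at left and females at right, 1 point per gene. Filled points have an adjusted p below 0.1 and the black line is the median of the list, which is 0.72 and 0.59 for the 8 genes and near 0 for fatty acid synthesis.

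Markers of several cell types moved with the response, and their part in it was not tested. The counts stand beside 29.0% of all genes called higher and 30.5% lower in males, and 12.8% and 10.6% in females. Of 7 keratinocyte genes, 4 rose and 1 fell in males, with a median log2 fold change of 0.355. They ranged from *Krt15* at −1.25 to *Krt1*, a keratin of differentiating cells, at 3.13. The summed level of the list was 11327 to 16675 CPM without UVB and 24141 to 33512 CPM with UVB. In females 3 rose and 1 fell, with a median log2 fold change of −0.012 and sums of 9754 to 14760 CPM and 14409 to 18338 CPM. Of 9 sebocyte genes, which include *Soat1*, 6 rose in each sex and 1 fell in males, with sums of 1920 to 2069 CPM without and 2483 to 3342 CPM with UVB in males, and of 1605 to 2607 CPM and 2296 to 3237 CPM in females. All 7 genes of dividing cells rose in both sexes, with sums of 199 to 302 CPM and 415 to 475 CPM in males and of 187 to 258 CPM and 283 to 356 CPM in females. In males 5 of 6 fibroblast genes, 6 of 7 muscle genes and 4 of 7 adipocyte genes fell, and in females 1, 0 and 0, where 1 fibroblast gene also rose, with 0 muscle and 0 adipocyte genes at an unadjusted p under 0.05. Of the macrophage genes 4 of 7 fell in males and 1 in females, the latter near the share of all genes, and of 6 measured neutrophil genes 4 rose in males and 2 in females, and 1 fell in each sex. Without the 2 males that carried RNA of growing hair, 5 keratinocyte, 7 sebocyte and 7 genes of dividing cells rose in males, while 4 fibroblast, 6 muscle, 5 adipocyte and 4 macrophage genes fell and 1 macrophage gene rose. Under upper quartile scaling the genes that rose in females were 2 of keratinocytes, 5 of sebocytes and 5 of dividing cells.

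Levels were compared between the 8 genes only per length, as CPM per kilobase of merged exons. *Hmgcs1* was the highest in every group, at 58.3 ± 2.23 (SD, n = 4) in males without UVB and 94.9 ± 4.47 with UVB, and at 52.2 ± 8.86 and 72.0 ± 7.07 in females. *Cyp51* followed, at 26.1 ± 0.335 and 43.8 ± 2.68 in males, and its mice overlapped those of *Fdft1*, the next gene, in females without UVB. *Fdft1* and *Mvd* could not be ordered, as their mice overlapped in every group. *Sqle* followed, but its mice overlapped those of *Mvd* in both female groups, of *Lss* in males without UVB and of *Idi1* in irradiated males. *Lss* and *Idi1* came next and overlapped in all groups but the males without UVB, and *Fdps* was the lowest in every group, at 1.23 ± 0.261 and 1.84 ± 0.115 in males. Per kilobase of the canonical transcript, a length chosen after the data were seen, *Sqle* moved from the fifth to the second place by its mean in each group, at 32.9 ± 4.76 in males without UVB, where its mice overlapped those of *Cyp51*. *Hmgcs1* and *Fdps* were first and last by their means with either length. Per canonical transcript, however, the mice of *Fdps* overlapped those of *Idi1* in females without UVB. The places of *Fdps*, *Idi1* and *Fdft1* are uncertain, since reads shared with their near-identical copies may be missing from their levels.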

How the data were processed

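Whole dorsal skin RNA of 16 mice was sequenced from poly(A)-enriched directional libraries. The authors aligned reads with STAR (version not given in the sources used here) to GRCm39, and the deposited counts are whole reads per gene and strand. The counts on the strand of the kit were used. Reads on genes numbered 16495776 to 33404831 per mouse (median 21767339), with 8.30 to 13.7% of reads outside genes and 1.17 to 1.34% ambiguous left out. Of 55359 identifiers, 54749 were in GENCODE M39.

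Counts were scaled by TMM, filtered with filterByExpr and tested with edgeR 4.0.16 (robust quasi-likelihood test) in R 4.3.3, with Benjamini-Hochberg adjustment over all genes tested and calls at an adjusted p under 0.1. The 8 males and the 8 females were fitted apart for the UVB responses, and all 16 mice together for the interaction and for males against females. DESeq2 1.42.0, other scalings, filters, strand counting, a replicate block and leaving out each mouse were alternatives. The test was checked on simulated counts. The labels do not say whether mice shared a litter or cage, so p-values measure the spread between these mice.

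All 8 genes are named in each comparison. Of each other list, at most the 4 called genes with the largest change are named, with *Srebf1*, *Srebf2* and *Insig1* always, the 8 genes most like the members, and markers needed to check a label. Some genes of these lists are counted but not reported here by name. The genes not called in a list were named after their values were seen. The members and lists were chosen with earlier results of these data known.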

Additional observations from a re-analysis of the deposited data

Results flagged for a closer look

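*Idi1* in replicate 3 of the irradiated males stood at 72.3 CPM, apart from the other mice of its group at 58.5 to 60.7 CPM. The gap was 0.837 of the range of the group, above the 95% critical value of Dixon's test for 4 samples. Of 32 groups looked at, this was the only such case, and chance marks about 1 in 20 groups.

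Of 74 tested genes in the 6 lists around the 8 genes, from sterol synthesis to fatty acid synthesis, the UVB responses of 3 differed between the sexes by edgeR's test of the interaction over 16 mice, or 4.05%, where the test called 7.00% of all genes. It also called 5 of 7 muscle, 3 of 6 fibroblast, 2 of 6 neutrophil, 1 of 7 keratinocyte and 1 of 9 sebocyte markers, the last being *Soat1* again. *Pdss1*, of ubiquinone synthesis, rose more in males, with a difference of 1.48 (adjusted p = 0.000988). For *Soat1*, which esterifies cholesterol, the difference was 0.815 (adjusted p = 0.0764), and without the 2 males that carried RNA of growing hair it missed the threshold at 0.77 (adjusted p = 0.135), as it did in 10 of 16 fits that left out 1 mouse (adjusted p of up to 0.155). For *Vldlr*, a lipoprotein receptor, it was −0.463 (adjusted p = 0.0534), and the call was lost in 3 of 16 such fits (adjusted p of up to 0.1201).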

How the results depend on the processing

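In males 8 of 8 genes were called under every alternative, and in females 7 to 8 when each mouse was left out, *Fdps* being added without replicate 3 of the females without UVB. For the difference between the responses, leaving out each mouse gave 0 to 1 calls. The replicate block gave 1, *Idi1* at 0.42, and the fit without the 2 males that carried RNA of growing hair, chosen after seeing the data, gave 1. The block also gave 3 calls without UVB, *Idi1* added, and 7 after UVB, *Fdps* added. The labels do not say that a replicate number marks a shared source, and same-numbered mice correlated at −0.20 to 0.31, not all over 0.1, so the numbers were not taken to pair the mice. Among irradiated males and females, 3 of 4 numbers correlated at over 0.1 and best with their own number. Between females with and without UVB, 2 of 4 numbers did so, replicate 1 at 0.18 and replicate 3 at 0.31. Replicate 3 had at least 7 of the 8 genes above the mean in every group. Without UVB, leaving out each mouse gave 2 to 5 genes higher in males. After UVB, leaving out each mouse gave 5 to 7, *Fdps* passing in 3 of these fits and in that without those 2 males, for 7 calls. Signs turned where values were near 0. Males against females without UVB, *Fdps* was −0.0060 under upper quartile scaling and −0.22 without those 2 males, and *Sqle* was −0.15 without them. *Srebf1* in males was 0.011 without them. With each mouse left out, *Fdps* ranged from −0.14 to 0.18 and *Sqle* from −0.067 to 0.11 in that comparison, and *Srebf1* in females from −0.025 to 0.17. The differences between responses ranged from −0.046 to 0.12 for *Cyp51*, −0.030 to 0.097 for *Fdft1*, −0.16 to 0.028 for *Lss* and −0.046 to 0.12 for *Mvd*. The cause was not tested. Over all genes the interaction called 478 higher and 740 lower, DESeq2 1102 and 938, the fit with DESeq2 size factors 687 and 641, and that with every gene of at least 1 count 229 and 495.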
